A study of Homo sapiens with 3 samples.

Results

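The genes described here encode the cytosolic and mitochondrial chaperones, the proteins that fold newly made or stress-damaged proteins outside the secretory pathway. They were 38 heat shock, HSP40, TRiC and prefoldin genes out of the 58735 genes with a deposited value, chosen by name. Earlier results of these data were known at that choice, so shares among the members are not those of a blind list. Their grouping by chaperone class made no use of measured levels. RNA was sequenced from 3 libraries of cells labelled KG1a, a human acute myeloid leukaemia line kept as an established culture. The control library came from cells infected with a lentivirus carrying a control short hairpin RNA (genotype labelled wild type), and both knockdown libraries from cells infected with a lentivirus carrying a hairpin against TRAF7, a RING-domain ubiquitin ligase. The knockdown libraries are numbered 1 and 2 in the labels, which do not say whether they are separate cultures or separate hairpins. The p-values therefore measure only the spread between these libraries, pooled over genes, and that spread may be technical. All 3 carry the same batch label, and infection with a hairpin lentivirus is common to all of them.

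Chaperones of these families bind unfolded segments and release them in cycles driven by ATP. HSP70 takes clients from J-domain (HSP40) partners and can pass them, through the adaptor HOP, to HSP90, which matures kinases and steroid receptors. TRiC is a ring-shaped chamber that closes around actin and tubulin, prefoldin hands it such clients, and HSP60 with its lid HSP10 does the corresponding work inside mitochondria. The transcription factor HSF1 drives the inducible members under proteotoxic stress, by binding heat shock elements, which are repeats of the unit nGAAn in alternating orientation. Leukaemic and other fast-growing cells commonly hold high levels of HSP90, HSP70 and TRiC.

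Values are FPKM, the read count of a gene scaled to its exon length and to the library. Assigned reads were 16014485 in the control, against 16221721 in knockdown 1 and 16254461 in knockdown 2. The targeted gene, TRAF7, was at 46.5 FPKM in the control, against 15.6 in knockdown 1 and 18.3 in knockdown 2, with no overlap between the groups. CD34, the surface antigen that defines KG1a, had 0, 1 and 10 reads in control, knockdown 1 and knockdown 2, and FLT3 had 0 in each, so the defining marker of the label was absent or near absent. SPN, another marker on the list for this line, was at 46.2, 45.3 and 32.9 FPKM. The summed level of 5 erythroid markers was 79.4, 78.05 and 77.9 FPKM, that of 4 lymphoid markers 0.698, 1.23 and 1.12, and that of 5 monocyte and granulocyte markers 0.489, 0.155 and 0.269. KLF1, an erythroid transcription factor, gave most of the erythroid sum, at 56.5, 61.7 and 55.8 FPKM, and ALAS2 of haem synthesis was at 11.2, 6.99 and 9.13 FPKM. For 5 stromal and epithelial markers it was 69.5, 92.7 and 81.5 FPKM, nearly all from KRT8 and EPCAM. The identity of the line is therefore uncertain, and the cells are named here by their label. The 6 markers on the KG1a list summed to 61.6, 54.6 and 46.4 FPKM. The lymphoid and the stromal and epithelial sums were thus higher in both knockdown libraries, and the other sums lower, and their part in the chaperone results was not tested. In bulk RNA, a change in the share of cells of a kind and a change in RNA per cell cannot be told apart.

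Chaperone transcripts were higher in both TRAF7 knockdown libraries than in the control for 35 of 38 genes, and lower in both for 0. For 32 of them the exact 95% Poisson interval of the reads, which covers counting error only, lay above that of the control in both libraries. The exceptions were HSPA9, DNAJA2 and PFDN4. The same count was not made over all genes, so it cannot be told whether 32 is unusual at this depth. Of the 12640 genes that averaged 1 FPKM or more, the genes tested, 42.5% were higher in both and 30.8% lower in both. Abundant genes were more often higher: of the 843 that averaged 50 FPKM or more, 74.9% were higher in both, against 21 of the 21 chaperone genes in that range. The 38 genes together took 1.48% of assigned reads of the control library, 2.07% of knockdown 1 and 1.80% of knockdown 2. Their summed FPKM was 3762, 5786 and 4855, which is 1.54 times the control in knockdown 1 and 1.29 times in knockdown 2.

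The median log2 fold change of the 38 genes, fitted on log2(FPKM + 1), was 0.43, beside 0.04 over all genes tested and 0.23 over those of at least 50 FPKM. On the deposited scale, 5 members were at least 1.5-fold higher in both libraries: HSPB1, FKBP4, HSPE1, CCT7 and PFDN6. That is 13.2% of the members, where 2.52% of all genes tested met the same rule and 4.15% of the abundant ones. In knockdown 2, HSPB1, CCT7 and PFDN6 were close to the bound, at 1.51, 1.51 and 1.53 times the control. The rule was not applied under other scalings. By limma with Benjamini-Hochberg adjustment over all genes, 0 of 38 members passed an adjusted p of 0.05 (smallest 0.403), and 0% of all genes tested did. An unadjusted limma p under 0.05 was reached by 19 members, all higher, beside 5.46% of all genes tested (higher) and 3.73% (lower). Among the abundant genes the share (higher) was 25.6%, against 14 of the 21 members in that range. In limma-voom on whole reads recovered from the FPKM values, 2 members passed over all genes, HSP90AA1 and FKBP4, both higher, where 0.18% of 15034 genes passed as higher and 0.659% as lower.

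**Figure D1:**
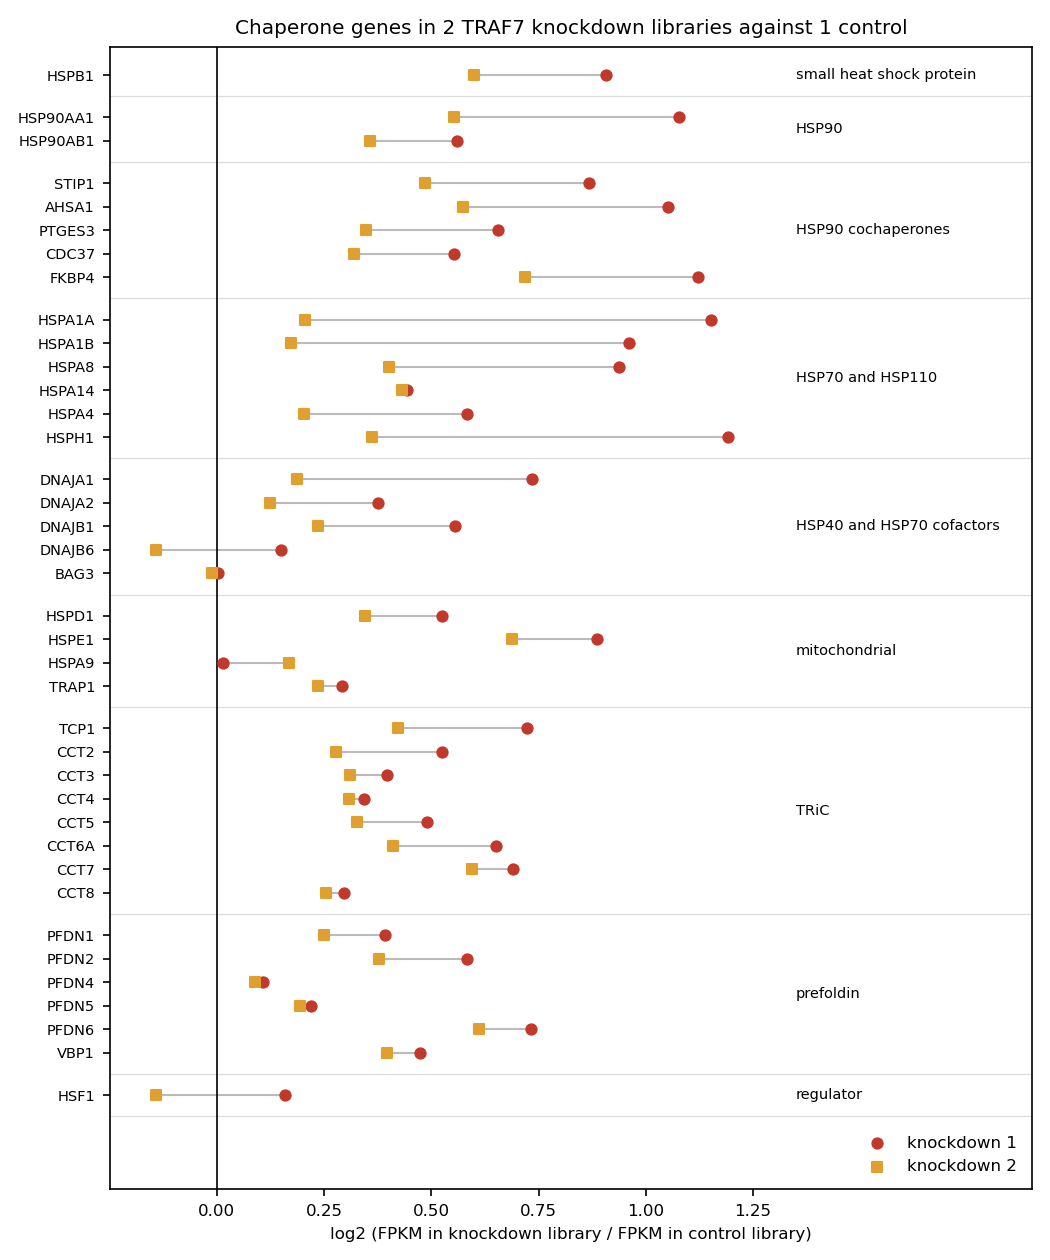
Log2 ratio of FPKM in each knockdown library to the control library (horizontal axis) for the 38 chaperone genes, grouped by class; circles are knockdown 1 and squares knockdown 2, and each point is 1 library. Of the 38 genes, 35 have both points above 0, while DNAJB6 and HSF1 straddle 0 and BAG3 sits at 0.

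The scaling of the libraries moved these counts. Members higher in both numbered 34 under median-of-ratios rescaling, 33 under scaling to all assigned reads and 31 under quantile normalization. The share of all genes tested moved to 36.4%, 29.8% and 38.6%, and that of abundant genes to 67.5%, 58.5% and 40%. HSPB1, the HSP90 genes, the HSP90 cochaperones, the HSP70 and HSP110 genes and the TRiC subunits were higher in both libraries for every gene under all of these scalings. The members that left the count under at least 1 of them were HSPA9, PFDN4, PFDN5, TRAP1 and DNAJA1.

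**Figure D2:**
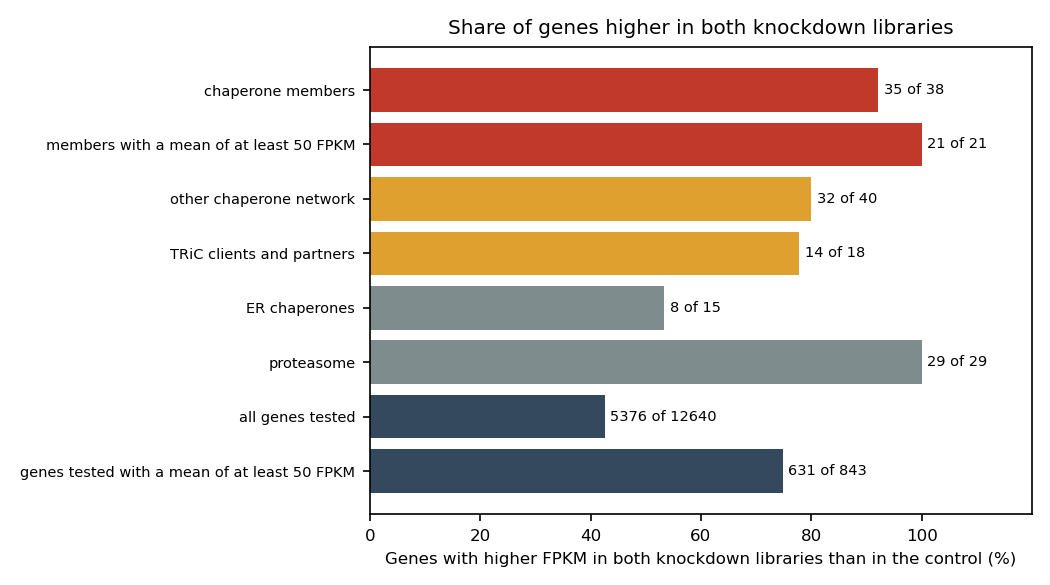
Percentage of genes with higher FPKM in both knockdown libraries than in the control (bars start at 0), for the chaperone members, for lists of related genes and for all genes tested, with counts at the bar ends. The members stand at 35 of 38, proteasome genes at 29 of 29, ER chaperones at 8 of 15 and all genes tested at 5376 of 12640.

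Promoter sequences were available from RefSeq (GRCh38.p14) for 33 of the 38 members, as 46 windows reaching from 250 bases before to 50 bases after a transcript start. A heat shock element of 3 units (GAANNTTCNNGAA or its reverse complement TTCNNGAANNTTC, so both strands are covered) lay in 6 of the 46 member windows, 13.0%, and in 0.49% of all 35116 windows of the same length. These windows belong to HSPA8, HSP90AA1, HSP90AB1, HSPD1, DNAJA1 and DNAJB6. The search was chosen after the levels had been seen, and a match is a description of the letters only. The stretches below show the element in both HSP90 genes, in the main constitutive HSP70 and in a J-domain gene whose level barely differed. They read 5′ to 3′ on the strand of the gene, with the matched element in capitals. The HSPA8 and HSP90AA1 stretches lie upstream of the RefSeq start but inside exons of other transcript models of the same gene in GENCODE release 29, and the others lie outside annotated exons.
HSPA8, chr11:123062171-123062200, minus strand, positions −64 to −35 from the start: gcgggccccTTCTGGAAGGTTCtaagatag
HSP90AA1, chr14:102087112-102087141, minus strand, positions −97 to −68: ggagggttcTTCCGGAAGGTTCgggaggct
HSP90AB1, chr6:44247753-44247852, plus strand, positions −190 to −91: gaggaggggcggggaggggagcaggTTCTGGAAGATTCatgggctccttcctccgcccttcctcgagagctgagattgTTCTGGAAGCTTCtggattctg
DNAJB6, chr7:157336844-157336923, plus strand, positions −160 to −81: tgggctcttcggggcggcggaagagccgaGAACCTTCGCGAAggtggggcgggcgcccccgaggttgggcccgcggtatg

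The HSP90AB1 stretch holds 2 such elements. Members with an element of 3 units spanned a wide range of differences. In knockdown 1 and knockdown 2, HSP90AA1 was at 2.11 and 1.47 times the control, HSPA8 at 1.92 and 1.32, DNAJA1 at 1.66 and 1.14, HSP90AB1 at 1.47 and 1.28, HSPD1 at 1.44 and 1.27, and DNAJB6 at 1.11 and 0.906. A match of 2 units (GAANNTTC or TTCNNGAA, each its own reverse complement, and contained in every match of 3 units) is common: 39.1% of member windows and 13.5% of all windows hold one. HSPB1 and the inducible HSP70 pair have only this shorter form in their windows. Their stretches are shown because HSPB1 was at least 1.5-fold higher in both libraries on the deposited scale, while HSPA1A and HSPA1B differed mostly in knockdown 1. All are on the plus strand, and the matches, in capitals, begin at positions −182, −106 and −105 from the respective starts.
HSPB1, chr7:76302463-76302532: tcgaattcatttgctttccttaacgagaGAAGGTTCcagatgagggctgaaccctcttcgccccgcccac
HSPA1A, chr6:31815403-31815463: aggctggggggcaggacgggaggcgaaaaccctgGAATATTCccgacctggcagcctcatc
HSPA1B, chr6:31827599-31827659: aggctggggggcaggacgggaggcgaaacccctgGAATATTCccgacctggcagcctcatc

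The windows of HSPA1A and HSPA1B were 92.6% identical over 299 aligned bases. A match of 2 units lay in a window of 16 of the 33 members, 48.5%, beside 16.2% of all genes. Of the 5 members at least 1.5-fold higher in both libraries, HSPB1 and PFDN6 are among these 16. FKBP4, HSPE1 and CCT7 are not, through lack of a match or of a window. No match of either form was found in the windows of HSPH1 and BAG3, which says only that these letters are not there. A CCAAT box (CCAAT or ATTGG) lay in 34.8% of member windows and 34.6% of all windows.

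The small heat shock protein HSPB1 (HSP27, which holds unfolding proteins without ATP; chromosome 7, 76302544 to 76304295, plus strand, GENCODE release 29 on GRCh38) was at 139 FPKM in the control, against 261 in knockdown 1 and 210 in knockdown 2. The Poisson intervals were 135 to 143, 255 to 267 and 205 to 216 FPKM. Both knockdown libraries were thus above the control and apart from each other. The fitted log2 fold change was 0.75 ± 0.17 (SE; limma adjusted p = 0.403), and 0.73 ± 0.19 by limma-voom (adjusted p = 0.0537).

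HSP90AB1 was the most abundant transcript of the set, and both cytosolic HSP90 genes were higher in both knockdown libraries. HSP90AB1, the constitutive form, had 1075 FPKM in the control library, against 1584 in knockdown 1 and 1378 in knockdown 2. HSP90AA1, the form more open to induction by stress, was at 215, 454 and 316 FPKM. Its share of the pair was larger in both knockdown libraries: the ratio of HSP90AB1 to HSP90AA1, both per length, was 4.99 in control cells, against 3.49 in knockdown 1 and 4.37 in knockdown 2. The length is that of all annotated exons, 2980 bases for HSP90AB1 and 5248 for HSP90AA1, so the ratio within a library depends on annotation. The log2 fold change was 0.81 ± 0.22 (SE) for HSP90AA1 (limma adjusted p = 0.445; limma-voom 0.79 ± 0.17, adjusted p = 0.0159). For HSP90AB1 it was 0.46 ± 0.11 (limma adjusted p = 0.403; limma-voom adjusted p = 0.123).

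All 5 cochaperones that steer the HSP90 cycle exceeded the control in both libraries, and each had an unadjusted limma p under 0.05. FKBP4 (FKBP52, an immunophilin that serves steroid receptors; chromosome 12, 2794953 to 2805423, plus strand) was at 21.2 FPKM in the control, against 46.2 in knockdown 1 and 34.9 in knockdown 2. The knockdown libraries were 2.18 and 1.65 times the control, and the log2 fold change was 0.89 ± 0.22 (SE), the largest among the 38 members (limma adjusted p = 0.407; limma-voom 0.90 ± 0.20, adjusted p = 0.0224). AHSA1, the activator of the HSP90 ATPase, was at 22.8, 47.3 and 33.98 FPKM. STIP1, the HOP adaptor between HSP70 and HSP90, was at 66.02, 120 and 92.5 FPKM. In each of these genes the control was lowest and knockdown 1 highest, with no overlap of the counting intervals.

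The remaining cochaperones differed less. PTGES3 (p23, which holds HSP90 in its closed state) was at 92.1, 145 and 117 FPKM, and CDC37, which delivers kinases, at 84.1, 123 and 105 FPKM. The summed FPKM of the cochaperones was 1.69 times the control in knockdown 1 and 1.34 times in knockdown 2, near the 1.58 and 1.31 times of the HSP90 genes themselves.

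All 6 HSP70 and HSP110 genes exceeded the control in both libraries, but most of the difference lay in knockdown 1. HSPA8 (HSC70, the constitutive HSP70; chromosome 11, 123057489 to 123063230, minus strand) was at 240 FPKM in the control, against 459 in knockdown 1 and 317 in knockdown 2 (log2 fold change 0.67 ± 0.22, SE; limma adjusted p = 0.495). It carries the only unadjusted limma p under 0.05 of this class, 0.026. The stress-inducible HSPA1A was at 32.1, 71.4 and 37.05 FPKM and its neighbour HSPA1B at 24.6, 47.9 and 27.7. These neighbours on chromosome 6 (31815464 to 31817946 and 31827735 to 31830255) are near-identical copies, and how their shared reads were divided is uncertain. Their sum was 56.7, 119 and 64.8 FPKM, 2.10 times the control in knockdown 1 and 1.14 times in knockdown 2.

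HSPH1 (HSP105, a nucleotide exchange factor of the HSP110 type) showed the same unevenness, at 9.04, 20.6 and 11.6 FPKM, or 2.28 and 1.29 times the control. HSPA4, another HSP110-type exchange factor, was at 45.6, 68.4 and 52.5 FPKM. HSPA14, a ribosome-associated HSP70, stood apart from this pattern at 12.05, 16.4 and 16.3 FPKM, nearly equal in both knockdown libraries. Release 29 gives its symbol to 2 overlapping identifiers. The other, named MSANTD7 in the later symbol table, was at 5.16, 6.60 and 6.26 FPKM and was not counted as a member.

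J-domain partners and HSP70 cofactors were the least uniform class, with 3 of 5 genes higher in both libraries and 0 with an unadjusted limma p under 0.05. DNAJA1, a main cytosolic HSP40, was at 67.5, 112 and 76.8 FPKM. DNAJB1, the stress-inducible HSP40, was at 19.0, 27.9 and 22.4 FPKM, and DNAJA2 at 17.8, 23.05 and 19.4. DNAJB6, which suppresses aggregation, was at 8.53, 9.46 and 7.73 FPKM, on opposite sides of the control. BAG3, a nucleotide exchange factor whose gene is a well-known HSF1 target, was at 14.9, 15.0 and 14.8 FPKM, with overlapping intervals in all 3 libraries.

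HSF1 itself, the regulator, was at 29.4 FPKM in the control, against 32.8 in knockdown 1 and 26.6 in knockdown 2, again on opposite sides of the control. Its fitted log2 fold change was 0.01 ± 0.20 (SE; limma adjusted p = 0.993). For DNAJB6 and HSF1, the sign of the fitted change turned negative under each of the 3 alternative scalings and in limma-voom.

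All 4 mitochondrial chaperone genes exceeded the control in both libraries, with the largest fitted change in HSPE1 and the smallest in HSPA9, and 0 passed limma's adjusted threshold. HSPD1 (HSP60, the chaperonin barrel) was at 151, 217 and 192 FPKM, and HSPE1 (HSP10, its lid) at 17.6, 32.5 and 28.3 FPKM. The log2 fold changes were 0.43 ± 0.15 (SE) for HSPD1 (limma adjusted p = 0.495) and 0.75 ± 0.19 for HSPE1 (limma adjusted p = 0.407; limma-voom adjusted p = 0.081). HSPA9 (mortalin, the mitochondrial HSP70 of protein import) was at 104, 105 and 117 FPKM. It was the only member with a lower FPKM, as deposited, in knockdown 1 than in knockdown 2. Its fitted log2 fold change of 0.09 ± 0.16 (limma adjusted p = 0.888) turned negative under quantile normalization and scaling to all assigned reads. TRAP1, the mitochondrial HSP90, was at 56.7, 69.3 and 66.7 FPKM (log2 fold change 0.26 ± 0.16, SE), so its fitted change and that of HSPD1 differed by little more than their errors, and no test compared them.

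HSPD1 and HSPE1 lie head to head on chromosome 2, with 104 bases between their RefSeq starts (197500274 on the minus strand and 197500379 on the plus strand). This stretch holds an E-box (CACGTG, its own reverse complement) that lies in both promoter windows. The motif occurs in 6.52% of member windows and 7.26% of all windows, and among the members in the windows of HSPD1, HSPE1 and HSPA9. The shared site and that of HSPA9 are shown, the E-box in capitals, because the first serves as upstream sequence of both chaperonin genes and the second belongs to the mitochondrial gene with the smallest fitted change. Both stretches lie inside exons of other transcript models of HSPE1 and HSPA9.
HSPE1 and HSPD1, chr2:197500345-197500374, plus strand, positions −34 to −5 from the HSPE1 start: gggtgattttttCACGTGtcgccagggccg
HSPA9, chr5:138575403-138575432, minus strand, positions −31 to −2: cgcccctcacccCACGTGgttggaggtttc

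The level of HSPE1 needs care. Other genes' exons cover 23.9% of its exonic bases, among them those of the read-through gene HSPE1-MOB4, which is listed at 0 reads in each library, and no source used here says whether counting used strand. The same holds for PFDN6 (34.9% covered), HSPA1B (36.5%), CCT5 (30.1%) and TRAP1 (29.3%). Genes named as pseudogenes or read-through products of a member had 945, 1049 and 998 reads in all, 0.399%, 0.313% and 0.341% of the reads on the members. Among them HSPE1P2, a processed copy of HSPE1, had 17, 68 and 57 reads, also lowest in the control.

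All 8 TRiC subunit genes exceeded the control in both libraries, with 5 at an unadjusted limma p under 0.05. CCT7 (eta; chromosome 2, 73233420 to 73253021, plus strand) differed most, at 141 FPKM in the control, against 227 in knockdown 1 and 212 in knockdown 2 (log2 fold change 0.64 ± 0.13, SE; limma adjusted p = 0.403; limma-voom adjusted p = 0.0725). TCP1 (alpha) was at 73.9, 122 and 99.1 FPKM and CCT6A (zeta) at 99.3, 156 and 132. CCT8 (theta), the most abundant subunit transcript, differed least, at 218, 268 and 260 FPKM. The other subunits lay between, from 0.32 for CCT4 to 0.41 for CCT5 on the scale of fitted log2 fold changes.

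The ring needs each subunit in equal number, but the transcripts were not equal per length. That length counts all annotated exons of a gene, from 2830 bases for CCT4 to 5839 for CCT5. Ranks within the complex thus depend partly on annotation. In control reads CCT4, at 6010, was below TCP1, at 6151, though its FPKM was higher. The most abundant subunit transcript was 2.95 times the least abundant in the control, against 2.41 times in knockdown 1 and 2.78 times in knockdown 2. The coefficient of variation over the 8 subunits was 38.4%, 31.2% and 36.7%. TCP1 and CCT2, the least abundant per length, were at 0.654 and 0.685 of the complex's median in the control. In knockdown 1 they were at 0.774 and 0.705, and in knockdown 2 at 0.688 and 0.651, so CCT2 stood on opposite sides of its control value. CCT8, at the other end, was at 1.93 times that median in the control, 1.70 times in knockdown 1 and 1.81 times in knockdown 2.

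**Figure D3:**
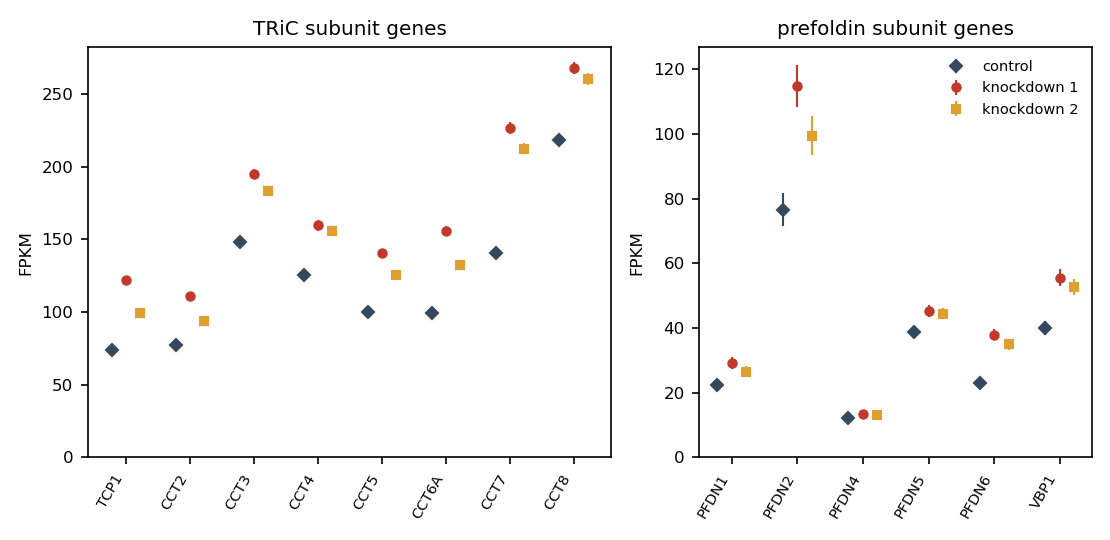
FPKM of each TRiC subunit gene (left) and prefoldin subunit gene (right) in the control (diamonds), knockdown 1 (circles) and knockdown 2 (squares); bars are exact 95% Poisson intervals of the reads and each point is 1 library. All TRiC subunits sit lowest in the control, with CCT8 highest at 218 to 268 FPKM, and PFDN4 is nearly level at 12.3 to 13.3 FPKM.

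All 6 prefoldin genes exceeded the control in both libraries, by unequal amounts. PFDN6 was at 22.9 FPKM in the control, against 37.99 in knockdown 1 and 34.9 in knockdown 2 (log2 fold change 0.65 ± 0.18, SE; limma adjusted p = 0.443). PFDN2, the most abundant per length, was at 76.5, 115 and 99.5 FPKM, VBP1 (PFDN3) at 40.03, 55.6 and 52.7, and PFDN1 at 22.3, 29.3 and 26.5. PFDN5 was at 38.8, 45.2 and 44.4 FPKM. PFDN4 was at 12.3, 13.3 and 13.1 FPKM, with overlapping counting intervals, and its log2 fold change of 0.09 turned negative under scaling to all assigned reads.

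On the deposited scale, the excess over the control was larger in knockdown 1 than in knockdown 2 for nearly every member, and by class to a different extent. Knockdown 1 exceeded knockdown 2 for 37 of 38 members, where 54.7% of all genes tested did so. Control, knockdown 2 and knockdown 1 stood in that ascending order for 34 members, against 28.9% of all genes tested and 50.9% of abundant ones. Neither count was repeated under other scalings. Some members had fewer recovered reads in knockdown 1 than in knockdown 2, among them CCT8 (13938 and 14154), CCT4 (7033 and 7172) and HSPA14 (674 and 699). Assigned reads were 16221721 and 16254461, so for these members the order depends on the scaling. For 27 members the counting interval of knockdown 1 lay wholly above that of knockdown 2, and for HSPA9 it lay wholly below. No such count was made over all genes.

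The ratio of knockdown 1 to knockdown 2 had a median of 1.59 in the HSP70 and HSP110 class, with HSPA1A at 1.93, HSPH1 at 1.78 and HSPA1B at 1.73. It was 1.30 among the HSP90 cochaperones, 1.09 among TRiC subunits (from 1.02 to 1.23) and 1.07 among prefoldin subunits (from 1.01 to 1.15). The median over all genes tested was 1.02. The members with a heat shock element of 3 units had ratios from 1.13 to 1.46, within the range of the others. TRAF7 was at 15.6 FPKM in knockdown 1 and 18.3 in knockdown 2. With 1 library at each end, no test of this difference is possible.

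**Figure D4:**
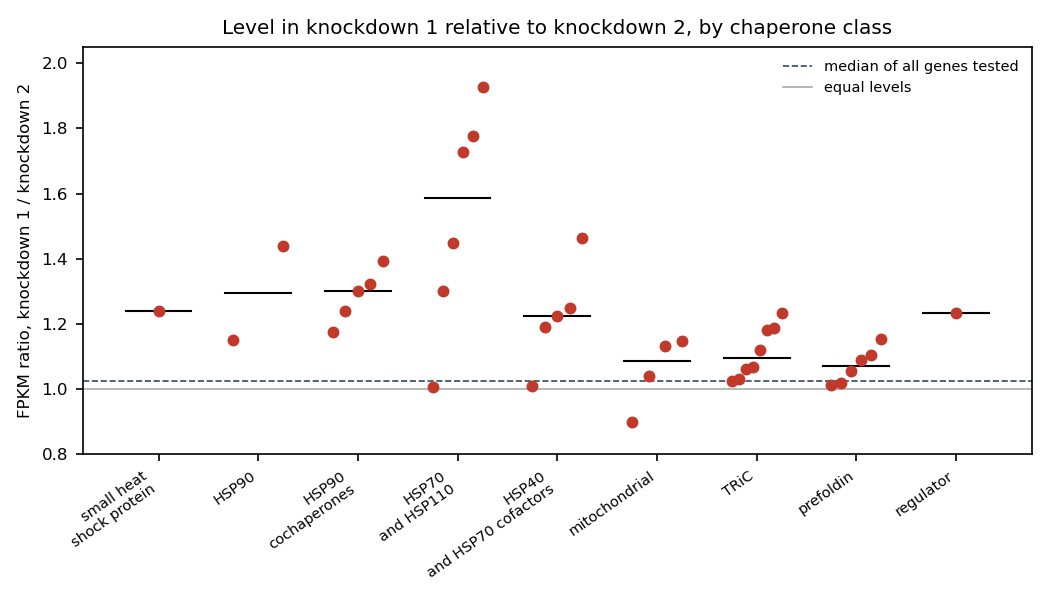
Ratio of FPKM in knockdown 1 to knockdown 2 (vertical axis, which does not start at 0) for each member by class; points are genes, short bars class medians, the dashed line the median of all genes tested (1.02). HSP70 and HSP110 genes spread up to 1.93, while TRiC and prefoldin subunits lie between 1.01 and 1.23.

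Other genes of the chaperone network followed to a lesser degree. Of 51 further J-domain, HSP70, HSP90 and mitochondrial quality-control genes, 40 passed the level filter. Of these, 32 exceeded the control in both libraries and 1 was below it in both, at a median log2 fold change of 0.29. The 32 are 80% of the list, beside 42.5% of all genes tested. Under median-of-ratios, quantile and assigned-read scaling the count was 32, 27 and 29. An unadjusted limma p under 0.05 was reached by 4, and 0 were past an adjusted one. The lowest p belonged to CACYBP, which links SGT1 and ubiquitin ligases, at 50.5, 77.0 and 74.7 FPKM, and to NUDC, an HSP90 partner in dynein function, at 69.4, 115 and 95.4. CLPB, a mitochondrial disaggregase, was at 2.93, 4.73 and 4.27 FPKM, and STUB1 (CHIP, the ubiquitin ligase of HSP70 clients) at 26.5, 41.0 and 34.6. Genes below the level filter went in different directions. CRYAB, named after its values were seen, had 5 reads in the control, against 15 in knockdown 1 and 28 in knockdown 2. The strictly inducible HSPA6 had 28 reads in the control, against 0 in knockdown 1 and 3 in knockdown 2. It was named after its values were seen, and its limma-voom adjusted p was 0.0092, in the direction opposite to HSPA1A.

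Among 18 TRiC clients and partners that passed the level filter, 14 were higher in both libraries, at a median log2 fold change of 0.22. That is 77.8%, beside 42.5% of all genes tested and 74.9% of those of at least 50 FPKM. Under median-of-ratios, quantile and assigned-read scaling the client count was 12, 12 and 10. The last is 55.6%, beside 29.8% of all genes tested and 58.5% of the abundant ones under that scaling. Of these 18, 0 were past limma's adjusted p and 4 had an unadjusted limma p under 0.05. The 4 with the lowest p were tubulin genes: TUBB was at 338, 515 and 486 FPKM, TUBA1B at 140, 236 and 187, TUBB4B at 144, 231 and 180, and the gamma-tubulin TUBG1 at 31.6, 52.9 and 41.5. All 4 were lowest in the control and highest in knockdown 1. Another tubulin gene, TUBA1A, went the other way, at 9.21, 6.93 and 7.26 FPKM, the only one of the 18 below the control in both libraries. The actin genes ACTB, at 662, 881 and 633 FPKM, and ACTG1, at 488, 547 and 445 FPKM, were above the control in knockdown 1 only. TUBA1A and the actin genes were named after their values were seen.

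ER chaperones lay near the median of all genes tested, and proteasome genes near that of the chaperones. The median level of the ER list was 66.15 FPKM. Genes of at least 50 FPKM had a higher median log2 fold change than the ER list, 0.23, and 74.9% of them were higher in both libraries. Of 15 chaperones and folding enzymes of the endoplasmic reticulum, 8 exceeded the control in both libraries and 4 were below it in both, at a median log2 fold change of 0.04. Under the other scalings from 4 to 6 of them exceeded it. HSPA5 (BiP), the HSP70 of that compartment, was at 200.3, 218 and 225 FPKM. Of 31 proteasome subunit genes, 29 passed the level filter. All 29 were higher in both, with a median of 0.46 and 18 at an unadjusted limma p under 0.05. Under the other scalings from 28 to 29 of them were. PSMB6 was at 48.8, 89.0 and 82.5 FPKM (limma adjusted p = 0.403; limma-voom adjusted p = 0.0442). No test of a difference between these lists was made.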

How the data were processed

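The authors deposited 1 table of FPKM values per library, per the file headers. BWA, Bowtie and hg19 appear in the submitters' processing notes, with no role or version; no source used here names the tool that counted reads. All 58735 identifiers matched GENCODE release 29 (GRCh38), which supplied symbols, coordinates and exon lengths. FPKM times exon length fell on whole steps (within 0.05) for 100% of values, which gave back the reads.

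Differences were fitted with limma 3.58.1 (R 4.3.3) on log2(FPKM + 1) with an intensity trend, over genes averaging 1 FPKM or more, with adjustment over all of them; fold changes on this scale understate those of low genes. The 1 control and 2 knockdown libraries leave 1 residual degree of freedom, and the lone control is assumed to vary like the knockdown pair. The error of each gene is pooled with that of genes of similar level, so an SE is not the spread of that gene alone. BAG3 and HSPA14, each nearly equal in both knockdown libraries, both have a limma SE of 0.175. The scripts were tested on simulated data. Exact 95% Poisson intervals come from the recovered reads. Alternatives were median-of-ratios rescaling, quantile normalization, scaling to all assigned reads, other filters and pseudocounts, no trend, each knockdown library alone, and limma-voom on genes averaging 10 reads or more. All 38 members are named, with up to 4 genes by lowest p from the other network and the client list, and at most 2 from the ER and proteasome lists, picked for their role or value. The members and lists were chosen with earlier results of these data known.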

Additional observations from a re-analysis of the deposited data

How the results depend on the processing

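With 1 control library and 1 residual degree of freedom, the adjusted p-values rest on the spread of the knockdown pair, pooled over genes, and the control's own spread cannot be measured. Members had from 408 to 73484 reads per library, and at the low end PFDN4 had overlapping counting intervals in all 3 libraries. No paired analysis was possible because the control library carries no replicate number.

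Members past limma's adjusted threshold numbered 0 under every scaling, filter, pseudocount and trend setting, and 2 by limma-voom; with 1 library against 1 there is no test. Over all genes the count was 3 at a mean of at least 5 FPKM and 126 by limma-voom, where 1767 had an unadjusted p under 0.05. The members' median log2 fold change of 0.432 was 0.226 under quantile normalization and lay between 0.327 and 0.435 in the other fits; with either knockdown library alone it was from 0.320 to 0.553. Members above the control numbered from 35 to 38 with either library alone. The sign reversed for DNAJB6 (−0.044 with median-of-ratios, −0.028 with quantile, −0.091 with assigned-read scaling, −0.016 with limma-voom), HSF1 (−0.043, −0.156, −0.094 and −0.011 in the same order), HSPA9 (−0.162 with quantile and −0.015 with assigned-read scaling) and PFDN4 (−0.007 with assigned-read scaling). The cause was not tested. With knockdown 2 alone DNAJB6 was at −0.126 and HSF1 at −0.137, and with knockdown 1 alone BAG3 was at 0.003, against −0.004 with both. No other member changed sign under these settings.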
